A study of Mus musculus with 8 samples.

Results

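Shared SMAD4 peaks within genes are the places in or beside a gene where SMAD4 was found on chromatin both before and after BMP9/10 was added to MS1 endothelial cells. Members were selected on the called peaks of both conditions. A stimulated peak on chromosomes 1 to 19, X or Y counted when it overlapped any unstimulated peak by 1 bp or more and its summit lay inside a protein-coding gene or within 1 kb of an end. This rule chose 531 of the 4324 stimulated peaks outside mitochondrial DNA (12.3%), from 4333 stimulated and 1133 unstimulated peaks in all. Another 548 shared peaks were intergenic, and 1855 stimulated peaks within genes had no unstimulated counterpart.

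BMP9 and BMP10 are circulating ligands that bind the receptor ALK1 and the co-receptor endoglin on endothelial cells. The receptor complex phosphorylates SMAD1, SMAD5 and SMAD8, which join SMAD4 and enter the nucleus. SMAD proteins touch DNA at the short SMAD box GTCT, whose other strand reads AGAC, and at GC-rich sites such as GGCGCC, which is better known for the BMP-activated SMADs. Mutations of ENG, ACVRL1 and SMAD4 cause hereditary haemorrhagic telangiectasia, so the genes where SMAD4 sits in endothelium are of interest for vascular malformations.

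MS1 is a mouse line of pancreatic islet endothelium immortalised with the SV40 large T antigen. All cells were serum starved for 24 h. The unstimulated group then got fresh medium and the stimulated group recombinant BMP9/10 at 1 ng/mL, for a time that the labels do not give. Each condition had 2 SMAD4 immunoprecipitates (IP) and 2 input libraries, 8 libraries in 4 groups, and the letters KD in the titles of both stimulated immunoprecipitates are unexplained. The authors merged the libraries of a condition before they called peaks, with 52971023 unstimulated and 41044888 stimulated IP tags after filtering. Each peak therefore has 1 value per condition and no replicate error. Intervals below are exact binomial at 95% and cover counting error only, and no difference between the conditions has a replicate check.

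The sequences under members at gene starts show which SMAD letters lie under the peaks. For 71 members the summit fell in a promoter of the RefSeq table for GRCm38.p6, which is the assembly behind mm10 and gives 250 bases before to 50 after a gene's start. 7 of them are printed, 5′ to 3′ on the strand of the gene, cut to the stimulated peak and to at most 25 bases from the start site on. Capitals mark GTCT or AGAC, and GGCGCC. Smad6 (chr9:64022035-64022166, minus strand) and Atad2b (chr12:4917103-4917377, plus strand) hold the palindromic SMAD box GTCTAGAC. Mdc1 (chr17:35841248-35841479, plus strand) and Pcyt1a (chr16:32430671-32430945, plus strand) hold GGCGCC and are among the members of highest pileup and of highest ratio, respectively. Ccdc92 (chr5:124862240-124862339, minus strand) holds GGCGCC and GTCT 5 bases apart, and its member had 1 of the lowest ratios. Dusp6 (chr10:99262981-99263249, plus strand) is shown as a signalling gene with a single SMAD box in the printed stretch. That box lies close to the start site and not at the summit. Ctla2a (chr13:60936601-60936875, minus strand) is shown for its 6 boxes.
Smad6: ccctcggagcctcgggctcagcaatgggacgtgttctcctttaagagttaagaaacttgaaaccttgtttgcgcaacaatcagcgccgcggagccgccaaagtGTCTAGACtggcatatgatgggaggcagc
Atad2b: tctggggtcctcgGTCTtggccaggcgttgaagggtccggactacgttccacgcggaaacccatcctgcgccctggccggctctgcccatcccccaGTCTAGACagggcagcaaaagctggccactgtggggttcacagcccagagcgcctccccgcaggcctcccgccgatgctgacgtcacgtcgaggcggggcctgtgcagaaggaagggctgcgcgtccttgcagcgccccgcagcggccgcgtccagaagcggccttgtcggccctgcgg
Mdc1: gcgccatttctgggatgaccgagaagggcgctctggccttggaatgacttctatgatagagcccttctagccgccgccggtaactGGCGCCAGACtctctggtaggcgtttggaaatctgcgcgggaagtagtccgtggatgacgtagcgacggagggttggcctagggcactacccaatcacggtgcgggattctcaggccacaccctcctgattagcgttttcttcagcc
Pcyt1a: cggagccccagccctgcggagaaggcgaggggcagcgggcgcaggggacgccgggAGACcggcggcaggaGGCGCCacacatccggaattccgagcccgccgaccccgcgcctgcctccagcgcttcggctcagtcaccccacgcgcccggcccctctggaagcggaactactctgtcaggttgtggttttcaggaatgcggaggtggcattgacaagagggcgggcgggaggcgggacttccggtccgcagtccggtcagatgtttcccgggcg
Ccdc92: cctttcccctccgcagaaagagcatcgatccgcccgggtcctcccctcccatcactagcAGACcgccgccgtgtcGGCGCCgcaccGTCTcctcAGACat
Dusp6: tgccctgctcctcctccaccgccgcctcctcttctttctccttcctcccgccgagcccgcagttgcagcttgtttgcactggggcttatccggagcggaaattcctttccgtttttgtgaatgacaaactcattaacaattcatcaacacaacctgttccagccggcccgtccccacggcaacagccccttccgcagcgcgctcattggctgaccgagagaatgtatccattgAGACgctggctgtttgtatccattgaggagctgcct
Ctla2a: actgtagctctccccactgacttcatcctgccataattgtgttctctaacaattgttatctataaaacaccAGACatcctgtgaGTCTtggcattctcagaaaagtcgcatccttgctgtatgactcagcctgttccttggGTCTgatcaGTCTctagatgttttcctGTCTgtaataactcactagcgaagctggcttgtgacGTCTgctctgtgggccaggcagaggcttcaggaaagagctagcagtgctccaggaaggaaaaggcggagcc

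At Smad6, which encodes an inhibitory SMAD, the palindrome lay under the middle of the peak. It occupies bases 64022056 to 64022063 of chromosome 9, its middle was 0.5 bp from the stimulated summit, and the summit coincided with the listed start site at base 64022059. At Atad2b, a gene for an ATPase with a bromodomain, the middle of the palindrome lay 2.5 bp from the summit of a peak with pileups of 1.22 and 0.831 tags per 1000000 IP tags, stimulated and unstimulated. Another palindrome, in the promoter of Klhl6, lay 31.5 bp away. Of the promoters under members, 3 of 71 (4.23%, 0.880 to 11.9) held GTCTAGAC. The share was 4 of 330 (1.21%) in promoters under stimulated-only peaks and 48 of 21263 (0.226%) in all promoters of protein-coding genes.

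GGCGCC was the more frequent long motif. It stood in 41 of 71 promoters under members (57.7%, 45.4 to 69.4), in 161 of 330 under stimulated-only peaks (48.8%, 43.3 to 54.3) and in 15.3% of all promoters. The intervals of the shared and stimulated-only promoters overlapped, so these data do not separate them. Promoters under members were richer in G and C than all promoters, with medians of 63.3% and 56.3%. The reordered letters GCCGGC, searched after the first counts were seen, stood in 32.4% of promoters under members and in 13.8% of all. Within promoters of 60 to 70% GC, GGCGCC occurred in 23 of 37 under members (62.2%, 44.8 to 77.5) against 24.9% of all, and GCCGGC in 37.8% against 21.1%. At 50 to 60% GC the shares of GGCGCC were 42.1% and 8.95%, and those of GCCGGC 10.5% and 7.47%. Peaks and promoters were not drawn from matched sets beyond these GC bands.

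**Figure D1:**
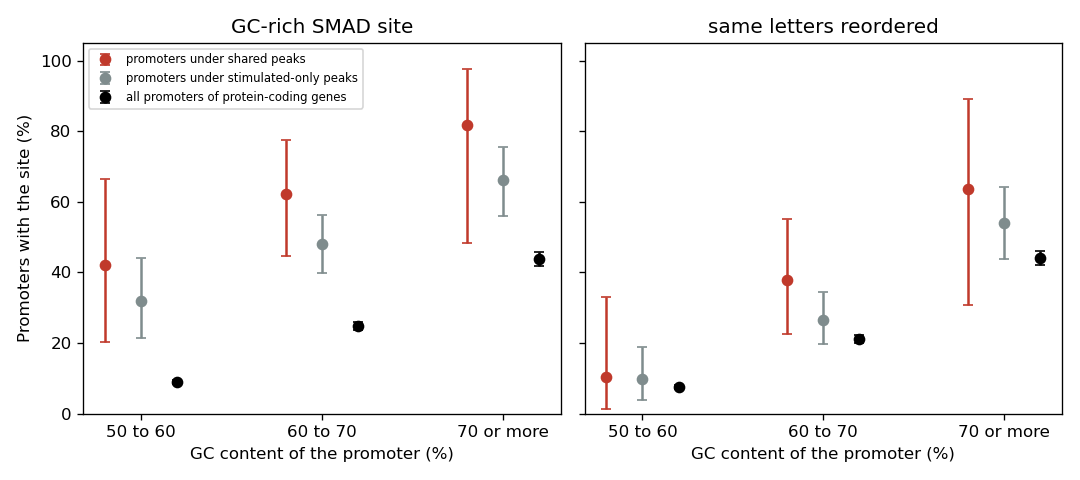
Share of promoters that hold GGCGCC (left, GC-rich SMAD site) or the reordered letters GCCGGC (right), by the GC content of the promoter. Red marks promoters under shared peaks, grey those under stimulated-only peaks and black all promoters of protein-coding genes; bars are exact 95% binomial intervals. At 60 to 70% GC the left panel reads 62.2% for shared peaks against 24.9% for all promoters, and the right panel 37.8% against 21.1%.

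GGCGCC also lay close to the summits of members. In the same 71 promoters there were 4.93 sites per 1000 positions within 50 bp of the summit (33 sites) and 1.26 farther away (18 sites). For GCCGGC the densities were 1.94 and 1.12, and for the SMAD box GTCT 11.3 and 6.95. In 32 of the promoters GGCGCC stood within 50 bp of the summit, and in the 41 that hold it the nearest copy was a median of 29.5 bp from it (quartiles 21.5 and 48.5). At Mdc1 the distance was 29.5 bp, at Ccdc92 36.5 bp and at Pcyt1a 48.5 bp. The median ratio of stimulated to unstimulated pileup was 1.53 with GGCGCC (n = 41, quartiles 1.39 and 1.69) and 1.52 without it (n = 30, quartiles 1.30 and 1.68).

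Short and general motifs stood at shares near those of all promoters. GTCT, which is common by its length, stood in 64 of 71 promoters under members (90.1%, 80.7 to 95.9) and in 86.8% of all. The AP-1 site TGANTCA stood in 7.04% and 6.99%, and the E-box CACGTG in 5.63% and 7.84%. The pair of GGCGCC and GTCT 5 bases apart, the spacing of the known BMP-responsive element, was found in 1 promoter under a member (1.41%), that of Ccdc92, and in 0.0847% of all. A single promoter gives no estimate of a share. All motifs were searched on both strands. Matches are letters in a window and were not tested as binding sites.

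Nearly every member had a higher pileup per IP tag in the stimulated list. Signal is given as pileup, the height of the stack of extended tags at the summit, per 1000000 IP tags of the list. Over the 531 members the stimulated pileup had a median of 1.02 (range 0.365 to 2.83) and the unstimulated pileup a median of 0.680 (0.340 to 2.02). The median ratio, stimulated over unstimulated, was 1.48, with quartiles of 1.29 and 1.69. Pileup per tag was higher in the stimulated list at 522 members (98.3%) and lower at the other 9. These values are part of what the rule used, since a member had to pass the authors' threshold in both lists, and they describe the members without testing them. A ratio of 1.29, which is also the lower quartile, is that of equal tag numbers before scaling to depth. With 1 merged list per condition, an effect of the ligand apart from differences between the libraries was not tested. Pileups stood on few tags, a median of 42 in the stimulated and 36 in the unstimulated list.

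Most single members did not show a difference beyond counting error. The interval of the ratio lay above 1 at 192 members (36.2%, 32.1 to 40.4), against 36.6% of all 1079 shared peaks, and below 1 at 0. A ratio of 1.5 or more was reached by 246 members (46.3%), against 45.5% of all shared peaks. Both shares are near those of all shared peaks, so they do not single out the members. Only 23 members (4.33%) reached a ratio of 2 or more. With the members split into 4 near-equal groups by mean pileup, 18.8% of the weakest group (n = 133) and 53.4% of the strongest (n = 133) had an interval above 1. The median ratios of those groups were 1.42 and 1.49. Stronger peaks thus differed in how often counting error was exceeded and little in the ratio itself.

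**Figure D2:**
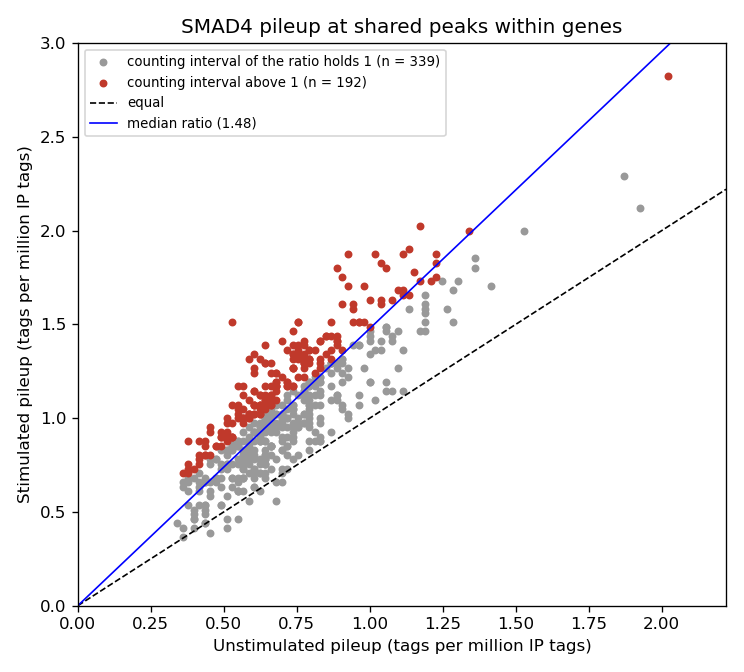
Pileup of each of the 531 members without ligand (horizontal) and with BMP9/10 (vertical), in tags per 1000000 IP tags. Red points are the 192 members whose 95% counting interval of the ratio lies above 1, the dashed line marks equal pileups and the blue line the median ratio of 1.48; most points lie above the dashed line.

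Weak and strong members kept their order between the conditions. Over the 531 members, which share the same libraries, stimulated and unstimulated pileups had a Spearman rho of 0.812 and a Pearson r of 0.847. The local background around the peaks, recovered from pileup and fold enrichment, had a median of 0.151 in both lists on the same scale and a median ratio of 1.00 (quartiles 0.823 and 1.29). The deposited fold enrichment of IP over that background had medians of 5.80 and 4.02. That background is the caller's local estimate from input scaled to the IP depth, so its ratio near 1 is largely set by the scaling and is no check of the ratio at the summits.

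Intergenic shared peaks gave nearly the same picture. Their median pileups were 1.07 and 0.717, and their median ratio was 1.47 (quartiles 1.31 and 1.67). Intervals above 1 were found at 203 of 548 (37.0%). The lowest and highest ratios were 0.807 and 2.69, against 0.813 and 2.86 in genes. Lying in a gene did not separate shared peaks by their ratio.

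**Figure D3:**
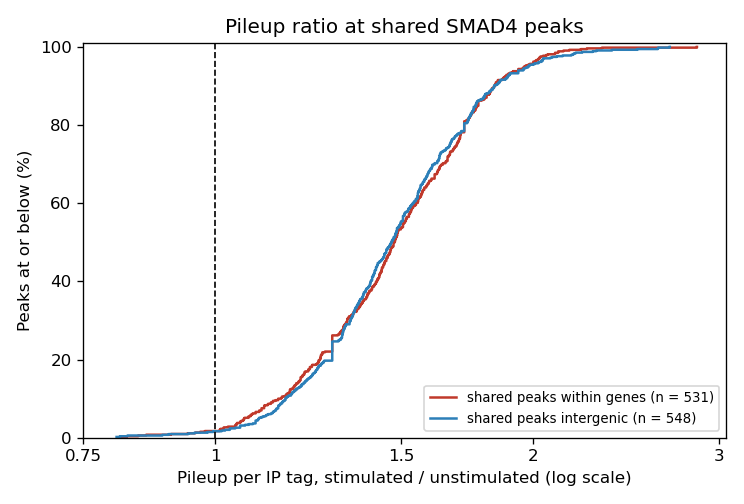
Cumulative share of shared peaks (vertical, %) by the ratio of pileup per IP tag, stimulated over unstimulated (horizontal, log scale), for the 531 peaks within genes (red) and the 548 intergenic ones (blue). The curves run almost on top of each other around medians of 1.48 and 1.47, and the step at 1.29 holds peaks with equal tag numbers in both lists.

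Members also differed from stimulated-only peaks in genes in strength, which follows from the rule. Stimulated-only peaks had a median pileup of 0.633, a width of 181 bp and a fold enrichment of 4.29. Just inside the sharing rule stood peaks at Cdc42ep4, with an overlap of 7 bp (pileups 0.536 and 0.434), and at Kel, with 43 bp (0.804 and 0.566). Just outside it were a peak at Extl3 (0.390), 89 bp from the nearest unstimulated peak, and one at Smad7 (0.487), 179 bp from it. At the gene limit, Ap3m2 (0.802 kb from the gene, ratio 1.98) and a second Smad6 peak (0.786 kb, ratio 1.67) were kept. Peaks at Id1 (1.055 kb, ratio 1.38) and Hes1 (1.059 kb, ratio 1.29), both classical BMP or Notch target genes, were not.

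Peaks at members were wider in the stimulated list. The median width was 316 bp (quartiles 242 and 404.5) in the stimulated and 185 bp (137.5 and 243) in the unstimulated list, and 488 members (91.9%) were wider in the stimulated list. At 400 members (75.3%) the unstimulated peak lay wholly inside the stimulated one. Summits stayed close, at a median distance of 32 bp, and 491 pairs (92.5%) were within 100 bp. Higher peaks were wider, with a Spearman rho of 0.551 between stimulated pileup and width, whereas ratio and width ratio were only weakly related (rho 0.133, n = 531 for both, over peaks of the same libraries). The authors' band width setting was 300 for the unstimulated and 200 for the stimulated list, and its part in the widths was not tested.

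The widest stimulated peaks reached past 1 kb. The widest, at Gse1 (chr8:120276035-120277290), a gene for a component of histone deacetylase complexes, spanned 1256 bp against 414 bp unstimulated, with pileups of 1.71 and 0.982 and a ratio of 1.74. At Cux1 (chr5:136566143-136567395), a homeobox gene, the widths were 1253 and 536 bp and the ratio 1.72 (1.11 to 2.68). Ctnna1, which encodes alpha-catenin and whose start is overlapped by Gm46617, had 917 and 228 bp (chr18:35118542-35119458) and a ratio of 1.88 (1.06 to 3.39). This stimulated peak overlapped 2 unstimulated peaks, and its unstimulated width and ratio are for the partner of closest summit only. The peak beside Smad7 was 790 bp wide and 675 bp unstimulated. At Atp6ap2 the stimulated peak, 1070 bp wide, was no wider than the unstimulated one of 1094 bp. These 5 were named for their stimulated width, which favours a large difference in width.

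Most members lay inside gene bodies, away from the outer limits of the gene, which are called its ends here. A member far from these ends can still lie at an inner start site, as at Atad2b. The summit was over 1 kb from both ends at 375 members (70.6%), near an end at 156 (29.4%, 25.5 to 33.5), and over 50 kb inside a gene at 93 (17.5%). Of those near an end, 104 were at the 5′ end only, 13 at the 3′ end only and 9 near both, and for 30 the strand was not given. Stimulated-only peaks in genes lay near an end in 35.5% (33.3 to 37.8) and at the 5′ end only in 26.7% (24.7 to 28.8), against 19.6% (16.3 to 23.2) of members. The counting intervals of the shares at the 5′ end did not overlap, but peaks of the same merged libraries are not replicates. The difference between the classes was not tested. Peaks near an end without a given strand, 30 members and 120 stimulated-only peaks, stay in the totals. Members are also the stronger peaks, and the part of strength in this difference was not tested. Summits within 100 bp of a listed start site made up 10.9% of members and 13.9% of stimulated-only peaks, and within 1 kb 23.4% and 32.5%. Start sites were listed for 405 of the 506 genes with a member. Peaks at the other genes stay in the totals, so these shares can be too low.

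**Figure D4:**
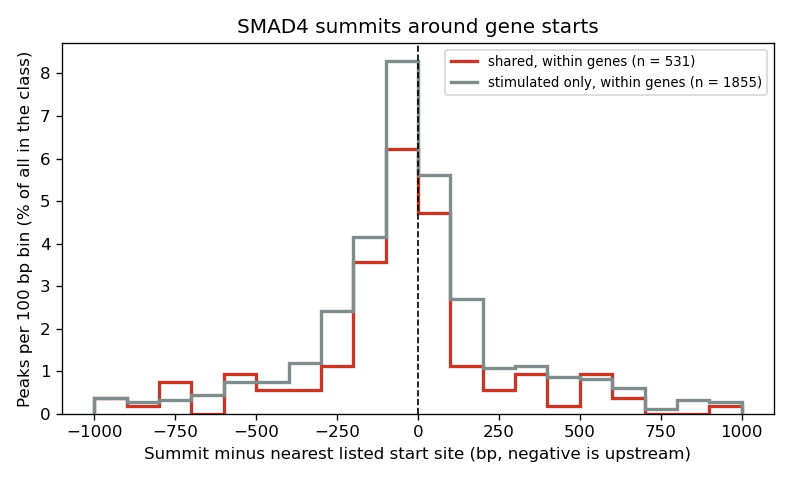
Share of peaks per 100 bp bin (vertical, % of all peaks in the class) by the distance of the summit from the nearest listed start site in bp (horizontal, negative is upstream). The red line is for the 531 members and the grey line for the 1855 stimulated-only peaks in genes; both peak next to the start, and the grey line is higher there. Peaks at genes without a listed start stay in the totals.

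Members near an end had a median ratio of 1.52 (quartiles 1.33 and 1.71) and interior ones 1.46 (1.29 and 1.68), and their stimulated widths were 341.5 and 304 bp. Along gene bodies with a known strand, 72 of 298 interior members (24.2%, 19.4 to 29.4) lay in the first of 4 equal stretches from the 5′ end, 80 in the second, 87 in the third and 59 (19.8%) in the last. Of interior stimulated-only peaks, 288 of 959 lay in the first stretch and 220 (22.9%, 20.3 to 25.7) in the third, where the members had 29.2% (24.1 to 34.7). Among members within 1 kb of a listed start, 76 of 124 (61.3%, 52.1 to 69.9) had the summit upstream of it. The share was similar for stimulated-only peaks in genes, 352 of 602 (58.5%, 54.4 to 62.4).

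The members fell in 506 of 21887 protein-coding genes (2.31%), whereas 1622 genes (7.41%) held a stimulated-only peak. Both kinds occurred together in 169 genes, which is 33.4% of the genes with a member and 10.4% of those with a stimulated-only peak. Genes with a member were long, with a median of 54.3 kb against 17.2 kb for all genes and 50.1 kb for genes with a stimulated-only peak. Longer genes offer more room for a peak, and counts of genes were not adjusted for length. A single member was found in 453 genes and 2 members in 44. Of 511 pairs of neighbouring members on the same chromosome, 28 had summits within 5 kb.

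Genes known as BMP targets held 8 members in 5 of the 20 genes of that list, beside 2.31% of all genes. Stimulated-only peaks stood in 6 of the 20, beside 7.41% of all genes. The 5 with a member were the inhibitors Smad6 and Smad7, the transcription regulators Atoh8 and Id3, and the VE-cadherin gene Cdh5, which is described with the endothelial genes. Smad6 had 2. At its start (chr9:64021792-64022166) the pileup was 1.17 stimulated and 0.661 unstimulated, a ratio of 1.77 (1.12 to 2.82). Upstream (chr9:64022756-64023025) it was 0.755 and 0.453, a ratio of 1.67 (0.947 to 2.97). Only the first differed beyond counting error. Smad7, the inhibitor of both BMP and TGF-beta receptors, had a member 0.215 kb outside the gene (chr18:75366438-75367227) with pileups of 0.975 and 0.566 and a ratio of 1.72 (1.05 to 2.86). A second, inside the gene (chr18:75375594-75375769), had 0.365 and 0.359 and a ratio of 1.02 (0.482 to 2.12). It was the member of lowest stimulated pileup, with 15 tags, so that a moderate difference was not detectable there.

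Atoh8 and Id3 encode helix-loop-helix proteins, and their members differed in size. Atoh8 had the highest ratio of any list gene, 2.02 (1.32 to 3.14), at a site 18.9 kb into the gene (chr6:72216611-72216952) with pileups of 1.41 and 0.698. Its other member, 0.831 kb from the 5′ end (chr6:72234650-72235203), had 1.19 and 0.831, a ratio of 1.44 (0.937 to 2.21). At Id3 (chr4:136144569-136145045) the summit lay in the gene with pileups of 0.999 and 0.831 and a ratio of 1.20 (0.766 to 1.88). Id3 was thus occupied in both lists with no difference beyond counting error. Over the BMP target list, Cdh5 included, the median ratio was 1.69 and 4 of 8 intervals lay above 1, beside a median of 1.48 and 36.2% over all members. The gene list was chosen with earlier results of these data known. Its peaks come from the same pooled libraries and are not replicates, so a difference from all members was not tested.

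Genes known as TGF-beta targets held members in 7 of 19, beside 2.31% of all genes. Stimulated-only peaks stood in 12 of the 19, beside 7.41% of all genes. Over the members of this list the median ratio was 1.65 and 7 of 10 intervals lay above 1, beside 1.48 and 36.2% over all members. As with the BMP targets, these values are a description of few peaks, and a difference from all members was not tested. Smad7 and its 2 members, described above, count in this list as well as among the BMP targets. Ski and Skil encode co-repressors that bind SMADs. Skil had 2 members at one end of the gene, with pileups of 1.02 and 0.604 (chr3:31094570-31095187; ratio 1.69, 1.04 to 2.77) and 1.32 and 0.736 (chr3:31095345-31095996; 1.79, 1.16 to 2.77). The first overlapped 2 unstimulated peaks, and its values are for the partner of closest summit. Ski had a weaker member (chr4:155178313-155178563) of 0.609 and 0.378, with a ratio of 1.61 (0.860 to 3.06). Both Skil sites, and not the Ski site, exceeded counting error.

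Pmepa1, a membrane protein that limits TGF-beta signalling, had 2 members inside its gene. Their pileups were 0.901 and 0.491 (chr2:173257687-173257928; ratio 1.84, 1.08 to 3.16) and 1.36 and 0.868 (chr2:173263582-173263983; 1.57, 1.04 to 2.37). Snai1, a repressor of epithelial genes, and Junb, an AP-1 subunit, each had a member just past the 3′ end. At Snai1 (chr2:167543112-167543636) it lay 0.450 kb past, with pileups of 1.22 and 0.755 and a ratio of 1.61 (1.04 to 2.51). At Junb (chr8:84976107-84976642) it lay 0.505 kb past, with 1.12 and 0.623 and a ratio of 1.80 (1.13 to 2.90). All 4 of these sites were higher in the stimulated list beyond counting error. Col4a1, a basement membrane collagen (chr8:11253626-11253774), had 0.804 and 0.566, and its ratio of 1.42 (0.839 to 2.41) was not separated from 1.

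**Figure D5:**
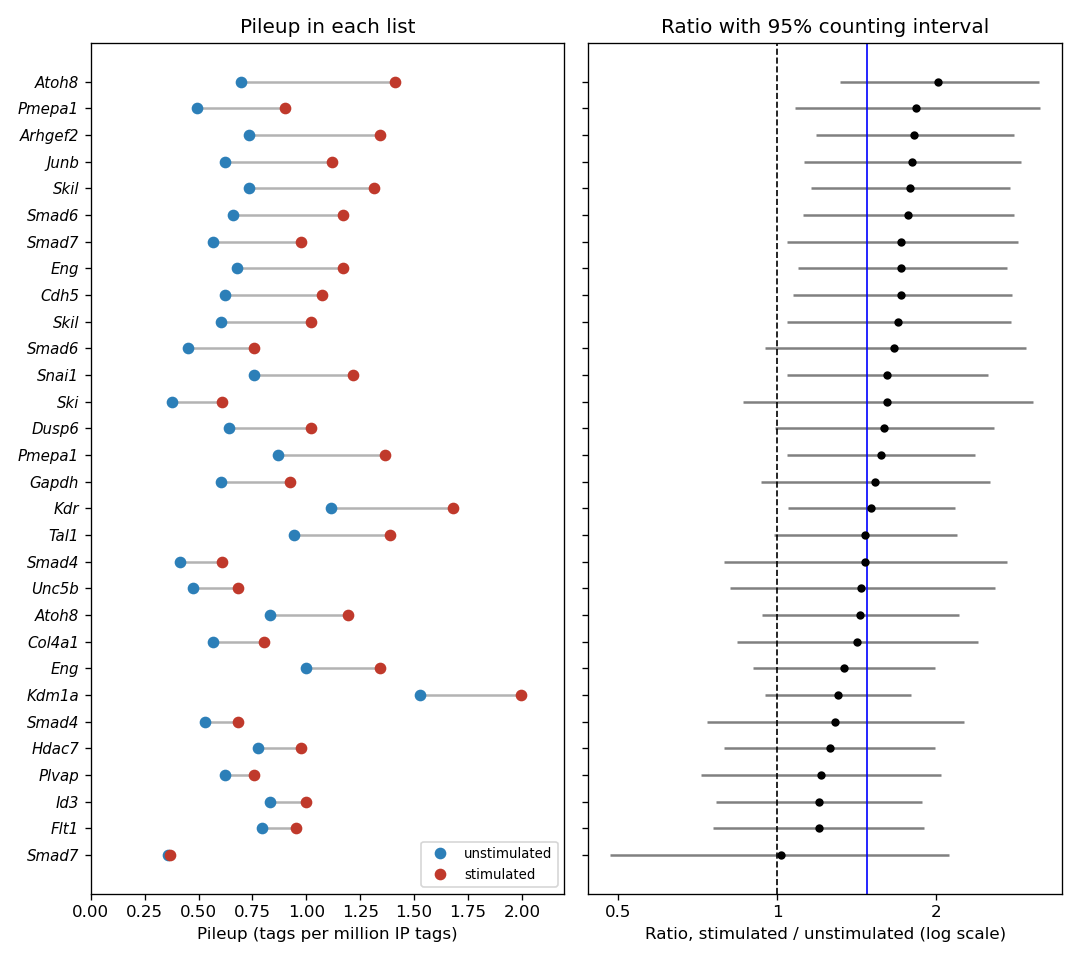
Members at the genes of the lists, 1 row per member, ordered by ratio. The left panel gives the pileup in tags per 1000000 IP tags in the unstimulated (blue) and stimulated (red) list, and the right panel the ratio on a log scale with its 95% counting interval, a dashed line at 1 and a blue line at the median of all members, 1.48. Ratios run from 1.02 at the inner Smad7 site to 2.02 at Atoh8.

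Among the receptors, ligands and SMADs of the pathway, 2 of 25 genes held members, beside 2.31% of all genes. Stimulated-only peaks stood in 5 of the 25, beside 7.41% of all genes. The median ratio of the members at this list was 1.40, beside 1.48 over all members. Eng, which encodes endoglin, had 2 inside the gene, 9.38 and 15.2 kb from the 5′ end. The nearer one (chr2:32655815-32656220) had pileups of 1.34 and 1.00 and a ratio of 1.34 (0.902 to 1.99), and the farther one (chr2:32661634-32662078) 1.17 and 0.680 and a ratio of 1.72 (1.09 to 2.73). Smad4 itself held 2 weak members. They had 0.609 and 0.415 (chr18:73649701-73649927) and 0.682 and 0.529 (chr18:73662611-73662838), with ratios of 1.47 (0.794 to 2.73) and 1.29 (0.737 to 2.26). Of these 4 sites, the farther Eng site alone exceeded counting error.

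Endothelial identity genes held members in 6 of 25, beside 2.31% of all genes. Eng, described above, was among them. Stimulated-only peaks stood in 9 of the 25, beside 7.41% of all genes. Over the members of this list the median ratio was 1.47 and 3 of 7 intervals lay above 1, beside 1.48 and 36.2% over all members. Cdh5, the gene of VE-cadherin (chr8:104121729-104122006), had pileups of 1.07 and 0.623 and a ratio of 1.72 (1.07 to 2.79). Kdr, which encodes the VEGF receptor VEGFR2, had the strongest member of this list (chr5:75933553-75933987), 0.911 kb inside the 3′ end, with 1.68 and 1.11 and a ratio of 1.51 (1.05 to 2.17). Tal1, a transcription factor of blood and endothelium (chr4:115056700-115057178), had 1.39 and 0.944 and a ratio of 1.47 (0.989 to 2.20). Cdh5 and Kdr exceeded counting error, and Tal1 came just short of it. Flt1, the gene of VEGFR1 (chr5:147721503-147721663), had 0.950 and 0.793 with a ratio of 1.20 (0.755 to 1.90), and Plvap, a protein of endothelial diaphragms (chr8:71511753-71511962), 0.755 and 0.623 with a ratio of 1.21 (0.718 to 2.04). Both intervals hold 1. The VEGF and tip cell list held members in 3 of 17 genes (Kdr, Flt1 and Unc5b) and stimulated-only peaks in 7. Unc5b, a netrin receptor (chr10:60816923-60817106), had 0.682 and 0.472 and a ratio of 1.45 (0.813 to 2.58).

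Notch pathway genes held 0 members in 20 genes, while 9 of them, among them Notch1, Dll4, Jag1 and Hey1, held a stimulated-only peak. Likewise the flow response and PI3K list held 0 members in 20 genes and stimulated-only peaks in 8, among them Klf4, Edn1 and Tek. These counts stand beside 2.31% of all genes with a member and 7.41% with a stimulated-only peak. At a background of 2.31%, 0 of 20 genes is not a result about either list. A gene counts only for peaks in it or within 1 kb, and the Hes1 peak just beyond that limit was shared.

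Other lists held 1 or 2 members each. Members stood in 1 of 15 ERK feedback genes and in 1 of 20 cytoskeleton and adhesion genes. They also stood in 2 of 20 chromatin regulators and 1 of 15 housekeeping genes, beside 2.31% of all genes. Stimulated-only peaks stood in 7, 6, 6 and 2 genes of these lists, in that order, beside 7.41% of all genes. Member counts this small are not a result about the lists. Dusp6, a phosphatase that restrains ERK, had a member 0.214 kb upstream of its start (chr10:99262938-99263249), with pileups of 1.02 and 0.642 and a ratio of 1.59 (0.990 to 2.58). Arhgef2, an activator of RhoA (chr3:88603820-88604165), had 1.34 and 0.736 and a ratio of 1.82 (1.19 to 2.82). Of the chromatin regulators, the histone demethylase gene Kdm1a (chr4:136569899-136570476) had 2.00 and 1.53 with a ratio of 1.31 (0.949 to 1.80). Kdm1a had high signal in both lists, with fold enrichments of 19.3 and 16.7. Hdac7, a histone deacetylase of endothelium (chr15:97828720-97829166), had 0.975 and 0.774 with a ratio of 1.26 (0.794 to 2.00). Beside the housekeeping gene Gapdh, which ends next to Iffo1 (chr6:125161455-125161794), the pileups were 0.926 and 0.604 and the ratio 1.53 (0.932 to 2.53).

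Marker genes of mural cells (13 genes), fibroblasts (12), leukocytes (14), islet and acinar cells (15) and hepatocytes (14) held 0 members. At a background of 2.31% of genes, 0 in lists of this size is not a result about them. Stimulated-only peaks stood at Pdgfra of the fibroblast and Spi1 of the leukocyte list. Cdh5 and Kdr were among the 6 of 25 endothelial identity genes that held a member. Pecam1, Tek, Vwf, Egfl7, Erg, Fli1, Lmo2 and Esam of the same list held a stimulated-only peak and no member. These counts say where SMAD4 peaks lay in the labelled cells and not what was expressed. In all, 23 of the 268 genes in the 16 lists held a member, beside 2.31% of all genes.

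The strongest members were mostly at genes outside these lists. The highest stimulated pileup stood in Atp6ap2, the gene of the prorenin receptor (chrX:12615656-12616725), with 2.83 and 2.02 (116 and 107 tags), a ratio of 1.40 (1.07 to 1.84) and fold enrichments of 24.9 and 12.0. The peak was 1070 bp wide in the stimulated and 1094 bp in the unstimulated list, ended at nearly the same base in both (12616725 and 12616724) and had its summit 0.492 kb from the 3′ end of the gene. Atp6ap2 was also the gene with the most members, 5. The other 4 were narrow (160, 188, 119 and 162 bp) with ratios of 1.26, 1.11, 2.04 and 1.48. No other gene held more than 3, and which exons of Atp6ap2 these peaks cover was not analysed here.

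At the keratin gene Krt78 (chr15:101995346-101995934) the pileups were 2.29 and 1.87 (ratio 1.23, 0.914 to 1.64), and inside Zfp219, a zinc finger gene (chr14:52020431-52020890), 2.12 and 1.93 (1.10, 0.817 to 1.48). The Zfp219 summit lay 0.470 kb from the 5′ end of that gene and 0.883 kb from the 3′ end of Tmem253, which lies within its span. Both intervals hold 1, so these strong peaks were not separated between the lists. Baalc (chr15:38938590-38938962) had 2.02 and 1.17 (ratio 1.73, 1.23 to 2.44), but on a local background of 17 tags, so its fold enrichment was only 4.67. Prickle2, a planar polarity gene (chr6:92463766-92464284), had 2.00 and 1.34 (1.49, 1.07 to 2.08), and Tbc1d1, a regulator of Rab proteins (chr5:64201057-64201385), 1.90 and 1.13 (1.68, 1.18 to 2.39). The intervals at Baalc, Prickle2 and Tbc1d1 lay above 1. All 10 of these strongest members were named for their stimulated pileup, which is the upper part of the ratio, so their ratios are a description and tend to be raised by that choice.

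Mdc1, Me3 and Gabpb1 shared the same stimulated pileup, 1.88, from different starting levels. At Mdc1, a mediator of the DNA damage checkpoint (chr17:35841160-35841479), the unstimulated pileup was 1.02 and the ratio 1.84 (1.28 to 2.66). The fold enrichment there went from 2.89 to 12.0, as the local background was 18 tags without and 5.5 with ligand. At the malic enzyme gene Me3 (chr7:89837738-89838230) the unstimulated value was 0.925 and the ratio 2.03 (1.40 to 2.96), and at Gabpb1, a partner of an ETS factor (chr2:126675015-126675749), 1.11 and 1.68 (1.18 to 2.41).

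The largest ratios were found at genes of varied function. Ano2, a calcium-activated chloride channel, stood first with pileups of 1.51 and 0.529 and a ratio of 2.86 (1.80 to 4.64), 187 kb into the gene (chr6:125876944-125877310). The unstimulated peak there rested on 28 tags. Arhgap22, which turns off Rac (chr14:33232027-33232279), had 0.877 and 0.378 with a ratio of 2.32 (1.31 to 4.24), and Ccdc85c (chr12:108212007-108212391) 1.32 and 0.585 with 2.25 (1.42 to 3.62). At Pcyt1a, which makes CDP-choline for membrane lipids (chr16:32430491-32431010), the summit lay 0.129 kb upstream of the gene, with 1.34 and 0.604 and a ratio of 2.22 (1.41 to 3.54). The other 4 of the 8 highest were Mgat5 (2.16), Lama4 (2.14), Sipa1l3 (2.11) and Oxr1 (2.11). Intervals of the 8 overlapped one another, so their order is not fixed by these counts, and the highest of 531 ratios are those most raised by counting error.

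The lowest ratios belonged to weak and narrow peaks. Sh3bp5 (chr14:31405981-31406114) had 0.414 and 0.510, a ratio of 0.813 (0.416 to 1.55), on 17 and 27 tags. The Ccdc92 promoter, which faces Zfp664, had 0.560 and 0.680, a ratio of 0.825 (0.466 to 1.43). The other 6 of the 8 lowest were BC016579 (0.846), Zmiz1 (0.860), Crebl2 (0.908), Tspan18 (0.942), Alpk2 (0.958) and Utp3 (0.968). All 8 intervals hold 1, so none of these peaks was lower after BMP9/10 beyond counting error.

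In the 9 genes with 3 or more members, the intervals of sites in the same gene overlapped, and differences between sites were not tested. Lama4, which encodes a laminin chain of vascular basement membrane, had 1.69, 1.54 and 2.14, and Me3 1.73, 1.39 and 2.03. Myct1, an endothelial gene, had 1.17 (0.745 to 1.84) at a site 0.110 kb upstream (chr10:5593534-5593811), and 1.90 (1.24 to 2.95) and 1.63 (1.02 to 2.64) at the sites 9.96 and 10.9 kb into it. The intervals of its inner sites lay above 1 and that of the site at the start did not. Ccnjl, a cyclin-like gene, had 1.66, 1.72 and 1.06 within a short stretch, and Peak1, a pseudokinase gene, 1.19, 1.71 and 1.18. The synaptic scaffold gene Dlgap1 had 1.26, 1.45 and 1.54. Sh3bp5 (0.813, 1.11 and 1.22) and Zmiz1 (0.860, 1.23 and 1.01) were below the median of all members at every site.

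Paralogues limit the Ctla2a example. Ctla2a and its paralogue Ctla2b, which encode cysteine protease inhibitors, lie on chromosome 13 and each had a member at the start. Pileups were 1.29 and 0.642 at Ctla2a (ratio 2.01, 1.28 to 3.19) and 1.41 and 0.887 at Ctla2b (1.59, 1.07 to 2.39). Their stretches under the peak hold 6 and 7 SMAD boxes, no GGCGCC and an AP-1 site each. The sources used here do not say how reads that match both copies were placed, so the split of signal between the 2 genes is uncertain.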

How the data were processed

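SMAD4 ChIP-seq peaks of MS1 cells were analysed from 1 deposited list per condition. Per the file headers, the authors called peaks with MACS2 2.1.0.20140616 on merged IP libraries against 59057559 (stimulated) and 72688953 (unstimulated) merged input tags, with 100 bp extension and a q cutoff of 0.01. Beside MACS2, mm10 and HOMER appear in the submitters' processing notes, and no aligner is named in the sources used here. The deposited pileup is a coverage signal without depth scaling and was divided by IP tags here. The authors' deposited fold enrichment is a ratio, taken as pileup with 1 added over the local background with 1 added. Of the deposited −log10 p-values and q-values, the latter served for alternative thresholds only.

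Peaks were shared at an overlap of 1 bp or more, and the unstimulated partner was the overlapping peak of closest summit. Genes were placed with RefSeq's GRCm38.p6 table, which has 21887 protein-coding genes. Strands and start sites came from the promoter table, which has entries for 17492 of them, 405 of the 506 genes with a member and 196 of the 268 list genes. The ratio interval is exact binomial (Clopper-Pearson) on both pileups, and no test across samples was possible. PCR and overlap of tags mean that intervals cover counting error only.

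The members and the gene lists were chosen with earlier results of these data known. Named members were the 10 highest by stimulated pileup, the 8 highest and 8 lowest ratios, the 5 widest, those at genes with 3 or more members, those at list genes, and the peaks nearest to the rule's limits. Ties were ordered by start position, which left Fkbp1a out of the 10 highest. Members shown for their promoter letters alone (Atad2b, Klhl6, Ctla2a and Ctla2b), the reordered motif, the GC bands, the 5-base pair and the distances to summits were chosen after values were seen. Scripts were tested on simulated data (Python 3.11.15, pandas 2.3.3, numpy 2.4.6, scipy 1.17.1).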

Additional observations from a re-analysis of the deposited data

How the results depend on the processing

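The 531 members, the 506 genes, the median ratio of 1.48 and the 192 intervals above 1 were recomputed under other settings. With both lists kept only at a −log10 q of 10 or more, 160 members in 158 genes remained and 65 intervals lay above 1, as fewer peaks enter. With the authors' fold enrichment in place of pileup the median ratio was 1.39. Under the remaining settings (overlap of 50% of the stimulated width, summits within 100 bp, −log10 q of 5 or more, gene body only, a 5 kb margin, predicted gene names or tall narrow peaks left out, another partner, other scalings) members ranged from 372 to 612, genes from 352 to 616, the median ratio from 1.46 to 1.48 and intervals above 1 from 128 to 224. Counts for gene lists moved too: the BMP target list had 8 genes with a member under the 5 kb margin, and 3 at a −log10 q of 10 or more. No paired analysis was possible because the authors merged the libraries before peak calling, and leaving out a replicate could not be run for the same reason. Depth limits single peaks: at the median of 42 and 36 tags many ratios cannot be told from 1.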
